A study of Mus musculus with 8 samples.

Results

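The Prox1 locus of mouse chromosome 1 was examined as the peaks of H3K27ac that overlap the mm9 interval from 191.75 to 192.45 Mb, which holds the gene, placed at about 191.94 to 191.99 Mb, and its flanks. It held 12 of the 22731 peaks in the table. H3K27ac is an acetyl mark on histone H3 that accompanies promoters and enhancers in use. It was profiled by CUT&RUN, in which an antibody tethers a nuclease that cuts out the DNA around the mark. The material was mouse colon cancer organoids. The 3 Gata6KO libraries carry the genotype Gata6KO_AKP and the 3 Control libraries the genotype AKP, so that the AKP background is common to both. The labels do not spell out the alleles behind the name AKP. The labels give C57Bl6 as the recipient mice of all samples. The sources used here do not give how Gata6 was disrupted, how many clones were used or whether the replicates were separate cultures, so the spread between libraries may be technical. The series also lists 1 H3K4me3 and 1 IgG library from AKP organoids, which were not analysed here.

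PROX1 is a homeobox transcription factor, the vertebrate counterpart of Drosophila Prospero. It is needed for the identity of lymphatic endothelium and for the development of lens, liver and pancreas. In the gut it is found in cells of the enteroendocrine lineage, and in intestinal tumours it has been described as a target of Wnt signalling through beta-catenin and TCF. GATA6 is a zinc-finger transcription factor of the gut epithelium that binds GATA motifs. Acetylation far from a promoter marks candidate enhancers, but the counts do not tie a distant peak to a gene.

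Prox1 is read from the minus strand, so its upstream side is the side of higher coordinates. Its nearest protein-coding neighbours in RefSeq (GRCm38.p6, used for gene order only) are Smyd2, which encodes a lysine methyltransferase, on the downstream side and Rps6kc1, a gene of the ribosomal S6 kinase family, on the upstream side. Between Prox1 and Rps6kc1, RefSeq lists 7 genes, all of them long noncoding RNAs. The peaks were numbered 1 to 12 in order of rising coordinate. Peaks 1 and 2 lie beyond the 3′ end of the gene, peak 3 at its 5′ end and peaks 4 to 12 far upstream. No peak overlapped the gene span as given, and the 147.6 kb between peaks 2 and 3 held none.

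Peak 3 runs from 191991257 to 191993681 on chromosome 1. It starts 1.26 kb beyond the stated gene end, which is rounded to 10 kb, so whether it covers the start of transcription could not be read from the files. RefSeq gives Prox1 a pair of starts 1312 bases apart, closer together than the 2425 bp width of peak 3. Their sequences are shown because peak 3 is the peak next to them. Each has 250 bases before the start in lower case and the 50 bases from the start on in capitals, on the minus strand of GRCm38.p6, at chr1:190170778-190171077 for the distal start and chr1:190169466-190169765 for the other. These positions are not on the mm9 scale of the peaks.
Distal start: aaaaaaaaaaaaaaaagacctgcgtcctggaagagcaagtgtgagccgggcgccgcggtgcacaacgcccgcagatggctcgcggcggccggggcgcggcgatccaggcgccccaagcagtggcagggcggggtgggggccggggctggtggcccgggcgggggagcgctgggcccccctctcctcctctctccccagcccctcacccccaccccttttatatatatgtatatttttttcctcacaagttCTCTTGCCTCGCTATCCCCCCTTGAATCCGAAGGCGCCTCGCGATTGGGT
Proximal start: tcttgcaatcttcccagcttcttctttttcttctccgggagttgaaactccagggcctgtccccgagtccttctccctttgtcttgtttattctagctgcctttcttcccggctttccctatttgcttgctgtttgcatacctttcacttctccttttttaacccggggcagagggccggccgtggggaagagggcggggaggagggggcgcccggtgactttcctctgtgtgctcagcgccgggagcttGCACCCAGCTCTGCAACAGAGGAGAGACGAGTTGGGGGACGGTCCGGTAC

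Both windows were rich in CpG dinucleotides. The distal window held 25 and the other 14, against a median of 7 over the 32851 promoter windows of 300 bases in the same table, and their GC shares were 64.3% and 57.3%, against a median of 52.7%. The motif GATAA, read on both strands, was in neither window, while 25.4% of all promoter windows held it. The TCF motif ATCAAAG, read on both strands, was in neither, while 3.73% of all windows held it. These letters say nothing of the distant peaks, whose sequences were not used here.

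The comparison of Gata6KO with Control organoids asks how acetylation around Prox1 differs between organoids labelled as Gata6 knockouts and AKP organoids without that label. The locus was chosen with this contrast in view, so its values are a description and carry no test of their own. Levels are CPM over the reads in peaks, scaled by TMM factors. Log2 fold changes with their standard errors come from edgeR's quasi-likelihood fit to all peaks, and a peak is called where its Benjamini-Hochberg adjusted p over all peaks is under 0.05. Reads in peaks numbered 5495414 to 6196455 in the Gata6KO libraries and 5141856 to 7026388 in the Control libraries, and the counts of single peaks here ran from 10 to 618. The table gives no genes for the peaks, so neither the level at Gata6 nor cell type markers were checked.

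Of the 12 peaks, 10 were called higher in Gata6KO organoids and none lower, where 11.6% of all peaks were called higher and 10.2% lower (edgeR). All 12 fitted log2 fold changes were above 0, so no threshold on p could call a peak lower, and DESeq2 called 0 lower. The median log2 fold change was 1.14 over the 12 peaks and -0.01 over all peaks. In 11 of the 12, each Gata6KO library lay above each Control library, as it did at 17.5% of all peaks, and in 0 of the 12 did each lie below, as at 16.2% of all peaks. A fitted gain of at least 2-fold was found at 8 of the 12 and at 2.52% of all peaks. Because the locus was chosen on this contrast, nothing further is read from these shares.

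Summed over the 12 peaks, acetylation was 511, 523 and 540.2 CPM in Gata6KO libraries 1 to 3, against 269, 254 and 267 CPM in Control libraries 1 to 3. The groups lay far apart and the libraries of each were close together. The means were 525 ± 14.8 CPM in Gata6KO and 263 ± 8.33 CPM in Control libraries (SD, n = 3 each), a 1.99-fold difference. The 12 peaks took 0.0511%, 0.0524% and 0.0544% of all reads in peaks in the Gata6KO libraries, against 0.0268%, 0.0253% and 0.0266% in the Control libraries.

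**Figure D1:**
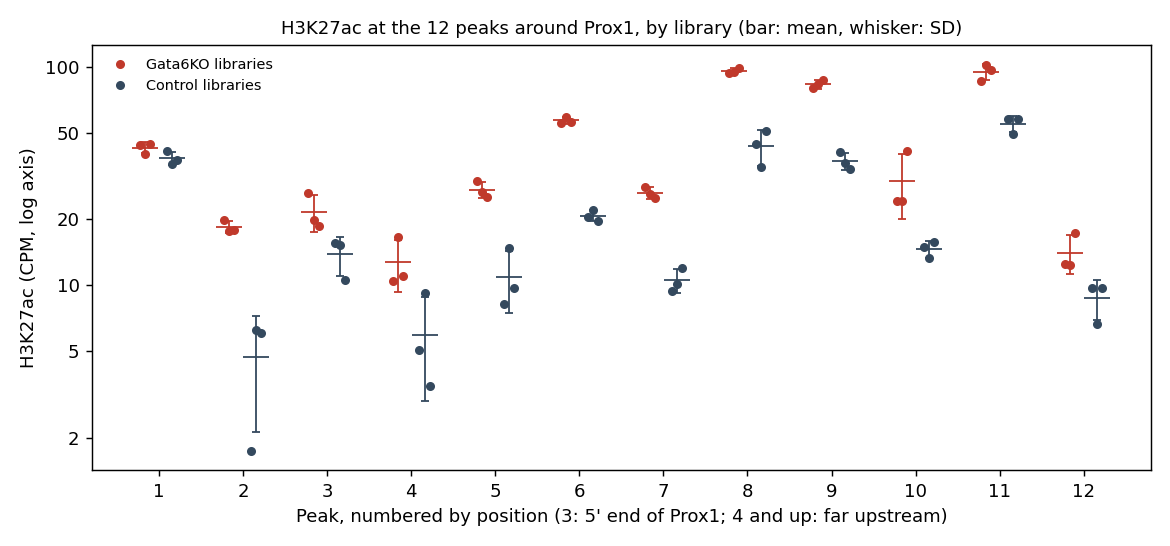
H3K27ac (CPM, log axis) at the 12 peaks in order of position, with Gata6KO libraries left of Control libraries at each peak; points are libraries, horizontal bars means and whiskers SD (n = 3 each). The groups overlap at peak 1 and lie apart at the other 11 peaks.

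At the 5′ end of Prox1, acetylation was higher in Gata6KO organoids by a modest amount. Peak 3 held 26.5, 20.0 and 18.6 CPM in Gata6KO libraries 1 to 3, against 15.7, 15.2 and 10.6 CPM in Control libraries 1 to 3. The groups did not overlap, although only 2.95 CPM separated the lowest Gata6KO library from the highest Control library. The means were 21.7 ± 4.21 CPM in Gata6KO and 13.8 ± 2.80 CPM in Control libraries, a log2 fold change of 0.66 ± 0.23 (SE). The peak was called higher, but not when Gata6KO replicate 1 or Control replicate 3 was left out, where the log2 fold change was 0.49 in each case. Per kilobase, peak 3 had the lowest mean of the 12 in Gata6KO libraries, though its range overlapped that of peak 12. It held 8.94 ± 1.73 CPM per kb there, against 5.70 ± 1.15 CPM per kb in Control libraries.

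The far upstream domain, 9 peaks from 192198838 to 192419492, carried most of the difference. Its peaks are centred 207 to 426 kb upstream of the centre of peak 3, and the 205 kb before it hold no peak. Summed over the 9 peaks, acetylation was 420.5, 445 and 459 CPM in Gata6KO libraries 1 to 3, against 210.5, 197 and 213 CPM in Control libraries 1 to 3. Every Gata6KO sum was above every Control sum. The means were 442 ± 19.7 CPM in Gata6KO and 207 ± 9.02 CPM in Control libraries, a 2.14-fold difference. All 9 peaks had higher means in Gata6KO libraries and 8 of them were called, with log2 fold changes from 0.69 to 1.45 over the 9.

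The stretch nearest the gene, peaks 4 to 6 from 192198838 to 192216931, had the highest ratio in the domain. Together the 3 peaks held 95.8, 103 and 92.5 CPM in Gata6KO libraries, against 33.7, 46.2 and 32.9 CPM in Control libraries, a 2.58-fold difference of the means. Peak 6, 5340 bp wide, led the domain by fold change. It held 55.4, 59.1 and 56.1 CPM in Gata6KO libraries 1 to 3, against 20.5, 22.2 and 19.8 CPM in Control libraries 1 to 3. Both groups were tight and 33.2 CPM separated them. Its log2 fold change was 1.45 ± 0.15 (SE).

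Peak 5, from 192200797 to 192202407, held 29.9, 26.8 and 25.3 CPM in Gata6KO libraries 1 to 3, against 8.17, 14.8 and 9.74 CPM in Control libraries 1 to 3. It was 2.51-fold higher by the group means, with Control replicate 2 the nearest to the Gata6KO libraries. The narrow peak 4 beside it, from 192198838 to 192199960, was the weakest of the domain by total level, with 10.4, 16.7 and 11.1 CPM in Gata6KO libraries, against 5.04, 9.15 and 3.44 CPM in Control libraries. The spread was wide in both groups and 1.29 CPM lay between them. Its log2 fold change of 1.14 ± 0.40 (SE) was called, but not without Gata6KO replicate 2 (0.90), Control replicate 1 (1.05) or Control replicate 3 (0.85), nor with trended offsets, a scaling that varies with the mean count (0.60).

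Peaks 7 to 9, from 192264610 to 192279233, held the largest part of the acetylation. Their sum was 202, 204 and 211 CPM in Gata6KO libraries 1 to 3, against 94.6, 81.0 and 97.1 CPM in Control libraries 1 to 3, a 2.26-fold difference of the means. Peak 8 held 94.0, 94.7 and 99.1 CPM in Gata6KO libraries, against 44.5, 34.7 and 51.0 CPM in Control libraries. The Gata6KO libraries were within a narrow range, while the Control libraries were more spread, and the groups were 43.0 CPM apart. Peak 9 held 79.7, 83.1 and 87.2 CPM in Gata6KO libraries, against 40.7, 36.2 and 34.1 CPM in Control libraries. The log2 fold changes of the pair were close, 1.13 ± 0.11 at peak 8 and 1.17 ± 0.12 at peak 9 (SE). Peak 7, the weakest of the 3, held 28.2, 26.1 and 25.0 CPM in Gata6KO libraries, against 9.39, 10.1 and 12.0 CPM in Control libraries, and was 2.51-fold higher by the means.

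Beyond peaks 4 to 9 the ratios were lower, as they were at peak 3 beside the gene. The step to peak 10 was within the error, with a log2 fold change of 1.03 ± 0.19 there and 1.13 ± 0.11 at peak 8 (SE). Peak 10, from 192312983 to 192315715, held 24.4, 24.3 and 41.4 CPM in Gata6KO libraries 1 to 3, against 15.0, 13.2 and 15.8 CPM in Control libraries 1 to 3. Gata6KO replicate 3 stood above the other libraries, and without it the log2 fold change was 0.73 in place of 1.03, still called. Peak 11, from 192355490 to 192360149, held 85.8, 102 and 96.8 CPM in Gata6KO libraries, against 57.4, 49.5 and 57.9 CPM in Control libraries. Its groups were 28.0 CPM apart and its log2 fold change was 0.79 ± 0.11 (SE). Peak 12, from 192418060 to 192419492, held 12.5, 12.3 and 17.3 CPM in Gata6KO libraries, against 9.74, 6.62 and 9.74 CPM in Control libraries. It was not called, although its groups lay 2.59 CPM apart, and its log2 fold change of 0.69 ± 0.33 (SE) was 0.29 with trended offsets.

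**Figure D2:**
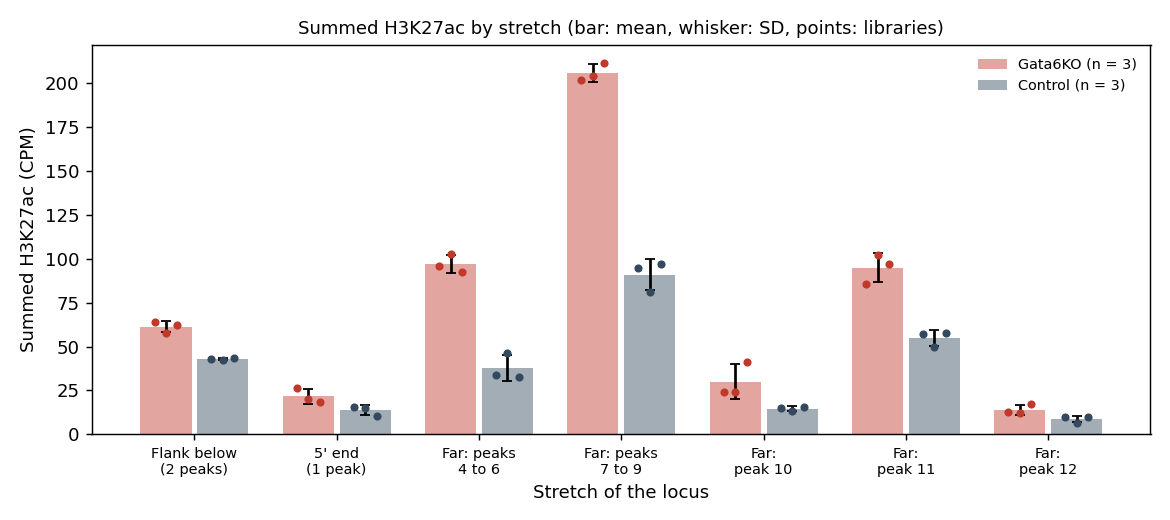
Summed H3K27ac (CPM) over each stretch of the locus, Gata6KO left of Control; bars are means, whiskers SD and points libraries (n = 3 each). Peaks 7 to 9 sum to 206 CPM in Gata6KO and 90.9 CPM in Control libraries, and the Gata6KO libraries lie above the Control libraries in every stretch shown.

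At some peaks the mean share of the domain differed between the groups by more than the larger SD. Peak 6 made up 12.9% ± 0.586 of the domain's summed level in Gata6KO libraries and 10.1% ± 1.06 in Control libraries (SD, n = 3 each). Peak 11 made up 21.5% ± 1.29 in Gata6KO and 26.5% ± 1.17 in Control libraries. At peaks 6 and 11 the shares of single libraries did not overlap between the groups. Peak 7 made up 6.01% ± 0.643 in Gata6KO and 5.08% ± 0.590 in Control libraries, and peak 12 made up 3.17% ± 0.526 and 4.19% ± 0.709. At peaks 7 and 12 the shares of single libraries overlapped between the groups. Peak 8 differed by less than its larger SD, with 21.7% ± 0.563 in Gata6KO and 20.9% ± 3.13 in Control libraries. The same held for peaks 4, 5, 9 and 10. Shares sum to the whole domain, so a lower share at some peaks follows in part from higher shares at others.

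By level per kilobase, peaks 9, 11 and 8 stood highest in Gata6KO libraries, with 20.7 ± 0.933, 20.4 ± 1.77 and 19.3 ± 0.553 CPM per kb. Neighbours in that order overlapped in range, and peak 5, the fourth, lay below all 3 libraries of peak 8. These 3 peaks had a higher level per kilobase than 98.2%, 97.9% and 96.9% of all peaks in Gata6KO libraries, and than 29.2%, 62.6% and 23.3% of all peaks in Control libraries. The remaining 6 peaks of the domain were between 3.90 and 6.77 CPM per kb in Control libraries, where the median of all peaks was 10.7 CPM per kb. In Gata6KO libraries the same 6 were between 9.81 and 17.0 CPM per kb, beside the same median of 10.7. The sources used here do not give the libraries in which each peak was detected, and a peak found through the Gata6KO libraries alone would be low in Control libraries by its choice.

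Peaks 1 and 2 lie on the downstream side, where the rest of the flank held no peak. Peak 2, from 191841936 to 191843647, had the highest fold change of the 12. It held 19.8, 17.8 and 18.0 CPM in Gata6KO libraries 1 to 3, against 1.74, 6.23 and 6.01 CPM in Control libraries 1 to 3. The Control values rest on 10, 32 and 42 reads, and Control replicate 1 was the lowest. The log2 fold change was 1.98 ± 0.34 (SE), which ranks 13 from the top of all 22731 peaks, and it was 1.60 without Control replicate 1 and 1.62 with trended offsets. In Control libraries its level per kilobase was above only 0.0396% of all peaks. The libraries in which it was detected are not given. Detection through the Gata6KO libraries alone would by itself favour a high fold change and rank, so the rank is only a description.

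Peak 1, from 191758187 to 191761137, held 43.9, 39.9 and 44.3 CPM in Gata6KO libraries 1 to 3, against 41.0, 35.8 and 37.4 CPM in Control libraries 1 to 3. The groups overlapped and the log2 fold change was 0.16 ± 0.14 (SE), not called. Per kilobase its mean was the highest of the 12 in Control libraries, though its range overlapped that of peak 11. It held 12.9 ± 0.907 CPM per kb there and 14.5 ± 0.816 CPM per kb in Gata6KO libraries. It lies 11.2 kb above the end of the last peak before the window, which had a log2 fold change of -0.34 ± 0.17 (SE). At the other end, peak 12 is the last inside, and the first peak beyond starts 152.8 kb past the window's end and had a log2 fold change of 0.05 ± 0.33 (SE).

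**Figure D3:**
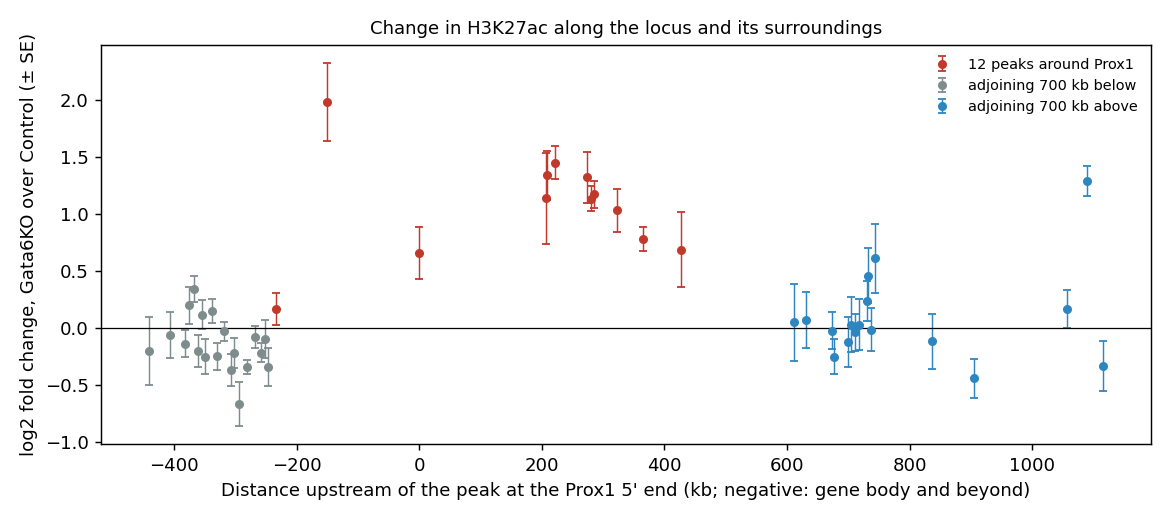
Log2 fold change of H3K27ac, Gata6KO over Control (± SE), against distance upstream of peak 3 in kb, for the 12 peaks around Prox1 and the peaks of the adjoining 700 kb on either side. The values rise from peak 3 (0.66) to peak 6 (1.45). From there they decline with distance to peak 12 (0.69), apart from peak 8 lying slightly below peak 9. The adjoining peaks run from -0.67 to 0.35 below and from -0.44 to 1.29 above.

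The adjoining 700 kb on each side, a length taken from the window after the values were seen, gave medians near or below 0. The 19 peaks below, on the Smyd2 side, had a median log2 fold change of -0.20, with 1 called higher and 4 lower. Their summed level was 1079 ± 22.4 CPM in Gata6KO and 1189 ± 11.2 CPM in Control libraries (SD, n = 3 each). The 17 peaks above had a median of 0.03, with 1 called higher and 1 lower, and summed to 399 ± 12.8 CPM in Gata6KO and 359 ± 20.6 CPM in Control libraries. Over the 1379 peaks of chromosome 1 outside the window, the median was 0.03 and 13.3% were called higher. No test of the difference between the locus and these stretches was made, since the locus was chosen on the same contrast.

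**Figure D4:**
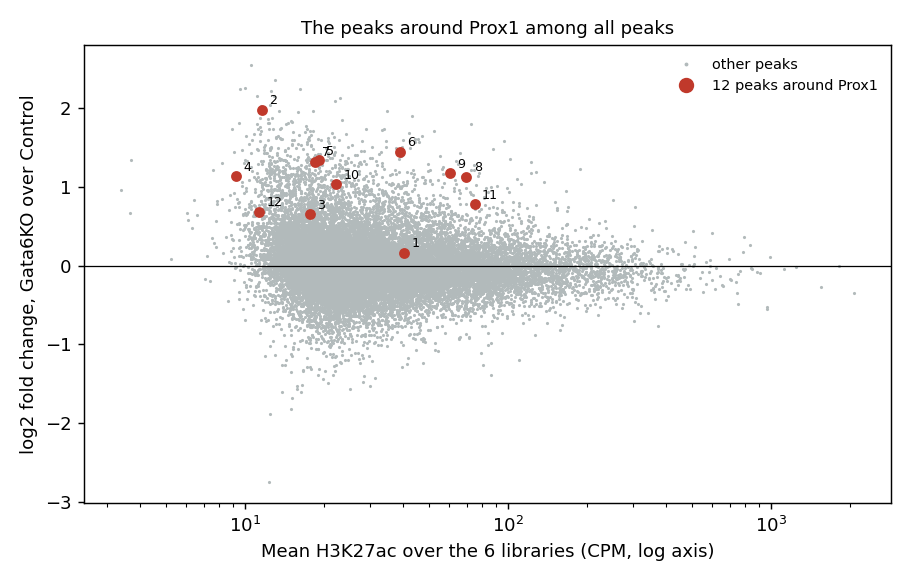
Log2 fold change, Gata6KO over Control, against the mean level over the 6 libraries (CPM, log axis) for all 22731 peaks (grey) and the 12 peaks around Prox1 (red, numbered). Peaks 6, 8 and 9 lie near the upper edge of the cloud at their level, while peaks 2, 3, 4 and 12 lie among weak peaks, where fold changes scatter widely.

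Outside the locus, 3 peaks with at least the median level were most like the summed far upstream domain in their pattern over the 6 libraries, measured as the root mean square difference of centred log2 CPM. The closest, at a difference of 0.060, spans 90970134 to 90979910 of chromosome 8. The next, at 0.061, spans 67309631 to 67316012 of chromosome 11, and the third, at 0.076, spans 135982292 to 135984612 of chromosome 1. The closest held 186 ± 7.51 CPM in Gata6KO and 89.0 ± 5.18 CPM in Control libraries (SD, n = 3 each).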

How the data were processed

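The authors deposited raw read counts per H3K27ac peak, without normalization, for 1 peak set and 6 libraries. The submitters' processing notes name the build mm9 and the tools Bowtie, bedtools, Picard, SEACR and SAMtools, with neither role nor version. How peaks were combined and counted is not given in the sources used here. Of the 72 counts used, 66 were even. Over all peaks, 82.8% to 88.9% of the counts were even, by library. Whether both mates of a pair were counted was not tested. If they were, counting error would be larger than the counts imply.

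All 22731 peaks were fitted with edgeR 4.0.16 in R 4.3.3 (TMM, quasi-likelihood, group as the only term, two-sided, Benjamini-Hochberg adjustment). Standard errors come from the quasi-likelihood F. CPM were summed per library over stretches, and far upstream means over 100 kb beyond the gene end. A shift common to every peak cannot be detected, and IgG background was not subtracted. All 12 peaks passed the filter.

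The peaks described in full are the one nearest the Prox1 5′ end, the highest per kilobase in each stretch and the 4 highest and 4 lowest fold changes, to which the remaining peaks were added. The members, lists and rules were chosen with earlier results of these data known. Planned lists of Wnt targets, enteroendocrine regulators and cell type markers were not run, because the gene table describes another build (GRCm38.p6). Same-numbered libraries did not deviate together by the measure given in the closing section. Alternatives were DESeq2 1.42.0, other scalings, filters and thresholds, a replicate block, halved counts and fits that omit 1 library. The other filters kept the same 22731 peaks as the main fit, so they could change no value.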

Additional observations from a re-analysis of the deposited data

How the results depend on the processing

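No peak changed direction under the alternatives run, and called peaks numbered 8 to 10 in place of 10, with 0 called lower throughout. Fits that omit 1 library called 8 to 10 higher. Of 204 values of single peaks, 8 lost their call, all at peaks 3 and 4, including both at an adjusted p under 0.01. Peak 3 kept its call in 14 of 17 alternatives and peak 4 in 12 of 17. The 17 include the other filters, which could change no value. The 204 include values of peaks 1 and 12, which had no call to lose. The ratio of sums was 1.96 to 2.02 for the 12 peaks, 2.08 to 2.19 for the far upstream domain, 1.40 to 1.47 for the flank below and 1.40 to 1.68 for peak 3. Moving the boundary from 100 to 50 kb changed no member. No sum over the gene span could be given, as no peak overlaps it. Deviations of same-numbered libraries from their group means correlated at 0.0059 to 0.066, so the numbers were not taken as pairs, and with the number as a replicate block 10 peaks were called higher. Depth limits peaks 2, 4 and 12, with as few as 10, 24 and 34 reads in a Control library.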
